A study of Homo sapiens with 30 samples.

Results

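TXNIP and ARRDC4 encode alpha-arrestins whose RNA levels follow the glucose supply of the cell. They were examined together with the other alpha-arrestins ARRDC1, ARRDC2 and ARRDC3 and with MLXIP and MLX, the transcription factor pair that senses glucose-derived phosphates. These 7 genes, matched by Ensembl identifier, were all found in both count tables, among 60675 genes in the table of the overexpression series and 58051 genes in the table of the MPC1 knockout series, and all 7 passed the filter on low counts in both. TXNIP and ARRDC4 were chosen by their lower RNA in MPC1 knockout libraries, so the KO against EV values of the 7 genes are a description, and the calls of that contrast are printed once, as counts from which nothing is read. The overexpression series was not used to choose them and was tested. The differences between cell lines were tested as well. Those of the knockout series use EV libraries of the contrast that chose TXNIP and ARRDC4, so they are not independent of that choice.

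The 30 RNA-seq libraries came from established human lines of acute myeloid leukemia (AML) and fall into 10 groups of n = 3. For overexpression, cells of the lines MV4-11 and Molm-14 were transduced with a lentiviral vector that expresses GFP from an EF1a promoter and carries the miR-1 hairpin within MIR1-2 host gene sequence (miR-1 OE), or with its empty form (EV). For knockout, these lines and THP-1 were transduced with a lentiviral vector that expresses Cas9, a GFP marker and 1 guide against MPC1 (KO), or with an empty vector. MV4-11 and Molm-14 carry a FLT3 internal tandem duplication (FLT3-ITD), which THP-1, a line of monocytic origin, lacks. Whether replicates were separate transductions or cultures is not given, so p-values measure the spread between these libraries, which may be technical.

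Alpha-arrestins are adaptor proteins that bring NEDD4-family ubiquitin ligases to membrane proteins, which are then taken up and degraded. TXNIP binds thioredoxin and promotes the internalization of the glucose transporters GLUT1 and GLUT4, and ARRDC4, its closest relative, also lowers glucose uptake. MLXIP (MondoA) and its partner MLX move to the nucleus when glucose 6-phosphate is high and bind carbohydrate response elements, paired E-box-like sequences, in the promoters of TXNIP and ARRDC4. MPC1 and MPC2 form the carrier by which pyruvate, the end product of glycolysis, enters mitochondria.

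In GRCh38, TXNIP (ENSG00000265972) lies at chr1:145992435-145996579 on the minus strand and ARRDC4 (ENSG00000140450) at chr15:97960703-97973833 on the plus strand, with 3604 and 4062 exon bases. The other members lie on chromosomes 9 (ARRDC1), 19 (ARRDC2), 5 (ARRDC3), 12 (MLXIP) and 17 (MLX), so no pair of members is adjacent. Reads were counted over whole genes, and no isoform was told apart.

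Promoter stretches with E-box-like letters are shown first, because they do not depend on the expression values that chose the genes. Binding to them was not measured. The windows are those of RefSeq on GRCh38.p14, from 250 bases before to 50 bases after each annotated start, and all 7 genes had at least 1 window. The letters searched were the E-box CACGTG, the looser CACGNG and its complement CNCGTG, of which the E-box is a special case, and 2 of these separated by 5 bases, and all were searched on both strands. Bases that matched CACGNG or CNCGTG are in capitals.
TXNIP, chr1:145996645-145996673, minus strand, from 94 to 66 bases before the start: gatgtgCACGAGggcagCACGAGcctccg
ARRDC4, chr15:97960481-97960510, plus strand, from 222 to 193 bases before the start: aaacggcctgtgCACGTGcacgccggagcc
ARRDC4, chr15:97960550-97960579, plus strand, from 153 to 124 bases before the start: ctgcgcccaccCACGCGTGggagcgccaat
MLX, chr17:42567038-42567067, plus strand, from 62 to 33 bases before the start: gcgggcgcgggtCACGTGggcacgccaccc

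In TXNIP, CACGAG stood as a direct repeat with 5 bases between the copies. This arrangement was present in 2 of 35116 promoter windows (0.0057%), and any pair of CACGNG elements at this spacing in 27 windows (0.0769%). The repeat was searched with the letters read in TXNIP, so its own window is among those found and the share tests nothing. ARRDC4 had an E-box and, closer to the start, an overlapping pair of CACGNG elements, and MLX had an E-box. Single CACGNG elements were not particular to these genes, since ARRDC2 held 3 in its first window, as many as ARRDC4, and ARRDC3 held 1 in its second. TXNIP held 4, ARRDC1 and MLXIP 0. The E-box was present in 7.26% of all windows, and at least 1 CACGNG element, E-boxes included, in 30.5%. A form of the carbohydrate response element that leaves more bases free, CANGNG and CNCNTG with 5 bases between them, was found in none of the member windows and in 0.564% of all windows. The search for CACGNG was added after the windows had been seen, and a match is a description of letters.

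miR-1 itself has the following mature sequence, with its seed (bases 2 to 8) in capitals, shown because targeting in the overexpression series would act through it.
miR-1-3p: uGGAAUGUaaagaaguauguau
Of the 7 members, only ARRDC3 held a match to this seed in the 3′ UTR of its canonical transcript (1 match to bases 2 to 8, ACATTCC), and none held the longer match followed by A. Over 19959 genes with an annotated 3′ UTR, 11.5% held the first kind and 4.72% the second.

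Levels below are CPM, counts scaled to a common library size after TMM normalisation. Libraries of the overexpression series held 15543301 to 20939985 counts and those of the knockout series 5339360 to 9106478, and no test was made between the series, which were normalised separately. MPC1, which checks the knockout labels, did not overlap between KO and EV in any line and was the lower in KO. All 8 myeloid leukemia markers were detected in both series, with CEBPA between 226 and 598 CPM, and of the markers of other cell types PAX5, a B-lineage factor, and KRT8 were the only ones to pass the filter in both series. PAX5 was at 111 ± 7.81 CPM in Molm-14 EV and 2.28 ± 0.571 CPM in MV4-11 EV of the overexpression series (SD, n = 3). In the overexpression series, 2 MV4-11 libraries stood apart in 13 interferon-stimulated genes, whose mean log2 CPM was 5.36 in OE replicate 1 and 2.95 in EV replicate 3 against -0.29 to 0.19 in the other MV4-11 libraries of that series. Also given without them are values of ARRDC3 and, for OE against EV in MV4-11, those of TXNIP and of the interferon list.

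Per kilobase of exon, TXNIP was the highest of the 7 members in each of the 30 libraries. It ranged from 36.0 to 68.8 CPM per kilobase with overexpression and EV vectors and from 53.0 to 219 in the knockout series. MLX kept to a narrow range, 15.1 to 18.6 CPM per kilobase in the former and 14.1 to 20.8 in the latter. ARRDC3, the alpha-arrestin that directs the beta2-adrenergic receptor to ubiquitination, was the lowest member in the 12 libraries of the overexpression series (0.349 to 1.33 CPM per kilobase), whereas MLXIP held that place in the 18 knockout-series libraries (1.19 to 3.33).

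Whether the arrestin levels differ between AML lines was asked first, in the EV libraries, which are also the controls of the OE and KO comparisons. TXNIP and ARRDC4 followed the same order in the knockout series, highest in THP-1, intermediate in MV4-11 and lowest in Molm-14. TXNIP was at 789, 775 and 669 CPM in the 3 THP-1 EV libraries, at 497, 469 and 438 CPM in MV4-11 EV and at 216, 191 and 213 CPM in Molm-14 EV. ARRDC4 was at 81.5, 74.2 and 72.7 CPM in THP-1 EV, at 39.5, 40.4 and 33.9 CPM in MV4-11 EV and at 14.5, 15.5 and 15.03 CPM in Molm-14 EV. For both genes no library of one line overlapped those of another.

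**Figure D1:**
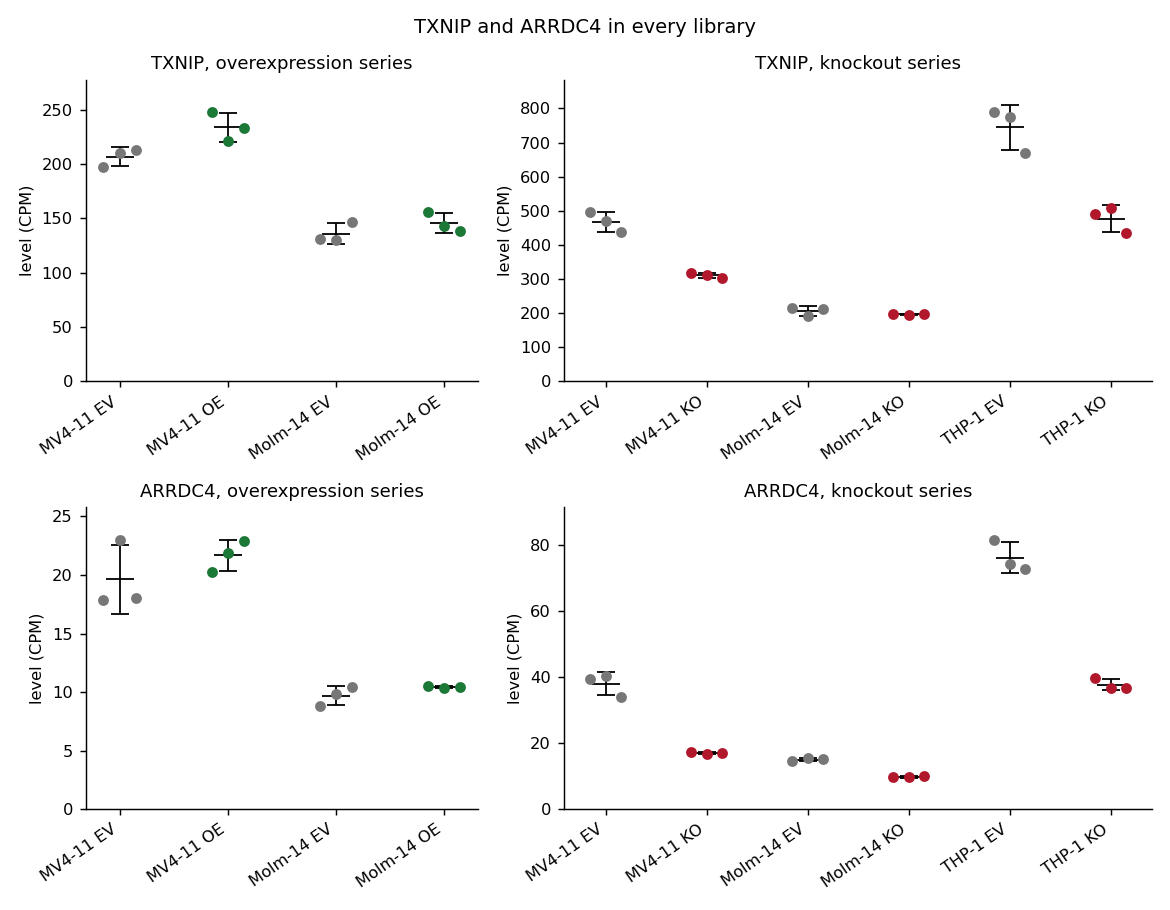
Levels of TXNIP (upper panels) and ARRDC4 (lower panels) in CPM, in the overexpression series (left) and the knockout series (right). Each point is 1 library, the horizontal line is the mean and the bars are the SD (n = 3). TXNIP ranges from 669 to 789 CPM in THP-1 EV and from 191 to 216 CPM in Molm-14 EV, and ARRDC4 lies lower in KO than in EV libraries of each line.

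Between MV4-11 and Molm-14 EV libraries of the knockout series, 61.7% of all genes tested were called at a false discovery rate (FDR) of 5%, so calls in this kind of comparison are common. In it, 4 of the 7 members were called, all higher in MV4-11. TXNIP differed by 1.18 on the log2 scale (SE 0.0815, edgeR quasi-likelihood test, FDR 8.22e-13) and ARRDC4 by 1.34 (SE 0.104, FDR 9.63e-12). ARRDC1, which recruits the budding machinery of microvesicles, and ARRDC2, a poorly characterized relative, differed by 0.73 (SE 0.144, FDR 7.27e-05) and 0.30 (SE 0.121, FDR 0.0355). The call of ARRDC2 was lost without MV4-11 EV replicate 1 (0.19, FDR 0.212), Molm-14 EV replicate 2 (0.22, FDR 0.162) or Molm-14 EV replicate 3 (0.29, FDR 0.0818).

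TXNIP, ARRDC1, ARRDC2 and ARRDC4 were called, again higher in MV4-11, in the EV libraries of the overexpression series, where 64.8% of all genes were called. TXNIP was at 197, 210 and 214 CPM in MV4-11 EV and at 131, 130 and 147 CPM in Molm-14 EV, a log2 difference of 0.60 (SE 0.0609, FDR 3.41e-08). Over the alternatives, which include fits without the MV4-11 libraries with high interferon-stimulated genes, this difference lay between 0.57 and 0.66. ARRDC4 was at 17.8, 23.0 and 18.03 CPM against 8.84, 9.80 and 10.4 CPM, a log2 difference of 1.02 (SE 0.114, FDR 1.45e-07). Again no library of either line overlapped the other. ARRDC3, MLXIP and MLX were not called, with log2 differences of -0.36 (95% interval -1.20 to 0.48), 0.02 (-0.08 to 0.12) and -0.07 (-0.20 to 0.07). ARRDC3 turned on a single library. Without MV4-11 EV replicate 3, one of the libraries with high interferon-stimulated genes, its difference was -0.90 with an FDR of 0.0201, and without both such libraries it was -0.90 with an FDR of 0.00269, so that 5 members were called. The part of the interferon-stimulated genes in the level of ARRDC3 was not tested.

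THP-1 was compared with both FLT3-ITD lines. Against MV4-11 EV, where 67.5% of all genes were called, 4 of 7 members were called, and against Molm-14 EV, where 69.6% were called, 5 of 7. TXNIP was higher in THP-1 by 0.67 (SE 0.0796, FDR 3.08e-08) and by 1.85 (SE 0.0825, FDR 5.20e-17) on the log2 scale, and ARRDC4 by 1.00 (SE 0.0921, FDR 2.47e-10) and 2.34 (SE 0.101, FDR 2.89e-17). The largest difference was that of ARRDC3, at 114, 125 and 81.4 CPM in THP-1 EV against 9.87, 12.8 and 10.8 CPM in MV4-11 EV and 12.6, 14.4 and 13.2 CPM in Molm-14 EV. It amounted to 3.26 (SE 0.169, FDR 7.85e-14) over MV4-11 and 2.99 (SE 0.165, FDR 2.08e-13) over Molm-14.

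ARRDC2 went the other way, being lower in THP-1 than in MV4-11 by a log2 difference of -0.86 (SE 0.127, FDR 1.12e-06) and than in Molm-14 by -0.56 (SE 0.129, FDR 3.51e-04). It was at 25.1, 23.0 and 25.9 CPM in THP-1 EV, 50.8, 41.1 and 42.2 CPM in MV4-11 EV and 41.5, 33.1 and 35.3 CPM in Molm-14 EV. ARRDC1 was higher in THP-1 than in Molm-14 by 0.75 (SE 0.145, FDR 4.74e-05) and was 0.02 from MV4-11 (95% interval -0.26 to 0.30).

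Of the sensing factors, MLX showed little of the order of TXNIP and ARRDC4, and for MLXIP the intervals were too wide to tell. MLX was at 74.4 ± 2.40 CPM in THP-1 EV, 72.6 ± 8.87 CPM in MV4-11 EV and 76.3 ± 5.78 CPM in Molm-14 EV, and none of its 3 pairwise differences was called (95% intervals between -0.26 and 0.23). MLXIP was at 21.9, 25.1 and 46.2 CPM in THP-1 EV, 19.6, 21.5 and 19.1 CPM in MV4-11 EV and 19.0, 39.2 and 25.3 CPM in Molm-14 EV. Relative to its mean, its replicates spread more widely than those of any other member in THP-1 and Molm-14 EV, and it was not called between any pair of lines. MLXIP differed by 0.61 (95% interval -0.08 to 1.29) in THP-1 over MV4-11, where the groups did not overlap. MLXIP was at 0.12 (-0.55 to 0.78) in THP-1 over Molm-14 and at -0.49 (-1.17 to 0.19) in MV4-11 over Molm-14. Without THP-1 EV replicate 1 its difference from MV4-11 was 0.81 with an FDR of 0.045. Reads of MLX cannot be told apart from those of PSMC3IP on the opposite strand if counting ignored strand, since 18.2% of the exon bases of MLX are shared with it. TXNIP, ARRDC4 and MLXIP share no exon base with another gene.

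**Figure D2:**
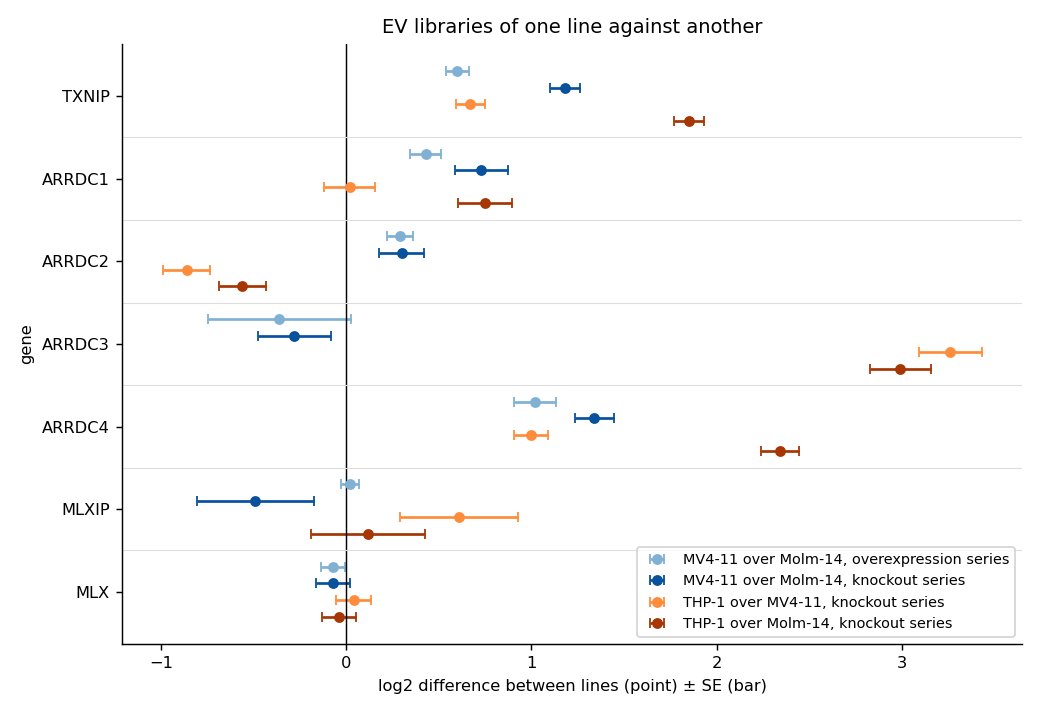
Log2 differences of the 7 members between EV libraries of the cell lines (points) with SE (bars), from the edgeR fit of each series (n = 3 per group). ARRDC3 stands out at 3.26 and 2.99 for THP-1 over MV4-11 and Molm-14, ARRDC2 is the only member below 0 with a call in THP-1, and TXNIP and ARRDC4 lie above 0 in all 4 comparisons.

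Other genes of the pathway were taken from 10 lists (81 genes tested in each series). Of the 81, 30 were called higher and 22 lower in MV4-11 than in Molm-14 in the overexpression series, where 64.8% of all genes were called. In the knockout series the counts were 28 and 30 (61.7% of all genes), with 34 and 32 for THP-1 over MV4-11 (67.5%) and 35 and 24 for THP-1 over Molm-14 (69.6%). The counts per list below stand beside these shares, and no list is read as set apart by them. Among 12 tested genes reported to respond to MondoA or its paralog ChREBP, 8 were called higher and 2 lower in MV4-11 than in Molm-14 in the overexpression series, with 5 and 4 in the knockout series (median log2 difference 0.59 and 0.10, beside 0.010 and 0.000 over all genes). KLF10, a Krüppel-like repressor induced by glucose, was higher in MV4-11 in both, by 1.18 (SE 0.0790, FDR 6.98e-11) and 2.03 (SE 0.132, FDR 2.19e-13), whereas PFKFB3, a glycolytic activator, was lower, with log2 differences of -1.63 (SE 0.0825, FDR 8.17e-13) and -1.90 (SE 0.146, FDR 7.63e-12). In THP-1 EV this list had 3 genes higher and 6 lower than in MV4-11, and 2 higher and 5 lower than in Molm-14.

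In the MAX and MLX network, 2 of 9 tested genes were higher and 1 lower in MV4-11 than in Molm-14 in the overexpression series, and 4 were higher and 0 lower in the knockout series. MLXIPL, which encodes ChREBP, was near the limit of detection in Molm-14, with at most 5 reads in an EV library of the overexpression series, against 230 to 402 reads in MV4-11 EV (16.3 ± 6.40 CPM). MAX, the partner of MYC, was higher in MV4-11 by 1.31 (SE 0.0631, FDR 3.70e-13) and 1.53 (SE 0.0917, FDR 3.88e-14). THP-1 had 2 genes of this network higher and 7 lower than MV4-11, and 4 higher and 4 lower than Molm-14.

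Of 11 genes of glucose transport and thioredoxin partners, 5 were higher and 5 lower in MV4-11 than in Molm-14 in the overexpression series and 4 higher and 5 lower in the knockout series. SLC2A6, a lysosomal hexose transporter, was at 15.2 ± 1.68 CPM in MV4-11 EV and 0.525 ± 0.275 CPM in Molm-14 EV of the knockout series, and DDIT4, an inhibitor of mTORC1, at 6.43 ± 1.02 and 219 ± 15.01 CPM (SD, n = 3). THP-1 had 5 genes higher and 3 lower than MV4-11 and 3 higher and 3 lower than Molm-14. Of 13 NEDD4-family ligases and vesicle genes, 4 were higher and 4 lower in MV4-11 than in Molm-14 in the overexpression series, and 3 higher and 2 lower in the knockout series. NEDD4 itself was lower in MV4-11 by -1.85 (SE 0.0980, FDR 1.62e-12) and -2.41 (SE 0.106, FDR 4.87e-17). THP-1 had 6 of these genes higher and 3 lower than MV4-11 and 7 higher and 2 lower than Molm-14.

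Counts for the remaining lists are given in the same way. Of 5 arrestin-fold relatives, 3 were higher and 1 lower in MV4-11 than in Molm-14 in the overexpression series, 4 were higher and 0 lower in the knockout series, 5 were lower in THP-1 than in MV4-11, and 1 was higher and 3 lower in THP-1 than in Molm-14. Of 5 AMPK subunits, 2 were higher and 3 lower in MV4-11 than in Molm-14 in the overexpression series and 1 higher and 2 lower in the knockout series, and THP-1 had 2 higher and 2 lower than either line. MPC1 and MPC2 were both lower in MV4-11 than in Molm-14 in both series, both were higher in THP-1 than in MV4-11, and only MPC1 was called, as higher, in THP-1 against Molm-14.

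Markers were also called between the lines, where calls are common over all genes. Of the myeloid markers, 5 were higher and 3 lower in MV4-11 than in Molm-14 in each series, 1 was higher and 4 lower in THP-1 than in MV4-11, and 4 were higher and 2 lower in THP-1 than in Molm-14. Of the 2 markers of other cell types tested in the knockout series, both were lower in MV4-11 than in Molm-14, 1 was higher and 1 lower in THP-1 than in MV4-11, and both were lower in THP-1 than in Molm-14. The interferon-stimulated genes had 0 calls between MV4-11 and Molm-14 EV of the overexpression series, where 1 of the libraries named above is among the 3 of MV4-11. In the knockout series 2 of 14 were higher and 10 lower in MV4-11 than in Molm-14, and 12 and 11 were higher in THP-1 than in MV4-11 and Molm-14, with 1 lower in each. Their part in the differences of TXNIP, ARRDC3 and ARRDC4 was not tested.

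Whether miR-1 overexpression moves the arrestins was tested next. No member was called in either line. In MV4-11, where 0.177% of all genes were called, 0 of 7 members were called by the edgeR quasi-likelihood test and 0 by DESeq2, and 1 had an unadjusted p under 0.05. In Molm-14, where 0.00570% were called, 0 of 7 were called by edgeR and 0 by DESeq2, and 0 had an unadjusted p under 0.05. The member with the smallest p was TXNIP in MV4-11, at 248, 221 and 233 CPM in OE and 197, 210 and 214 CPM in EV. The OE libraries were all above the EV libraries, but the log2 fold change of 0.18 (SE 0.0601, 95% interval 0.05 to 0.30) did not pass the edgeR adjustment (FDR 0.478). Over the alternatives tried it ranged from 0.14 to 0.22 with FDR values from 0.283 to 1, and it was 0.16 (FDR 0.339) without the MV4-11 libraries with high interferon-stimulated genes.

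In Molm-14, TXNIP was at 156, 143 and 139 CPM in OE and 131, 130 and 147 CPM in EV. The log2 fold change was 0.10 (95% interval -0.03 to 0.23, FDR 1). The groups overlapped. ARRDC4 was at 20.3, 21.9 and 22.9 CPM in MV4-11 OE against 17.8, 23.0 and 18.03 CPM in EV (log2 fold change 0.14, 95% interval -0.08 to 0.36, FDR 0.994), and at 10.5, 10.4 and 10.4 CPM in Molm-14 OE against 8.84, 9.80 and 10.4 CPM in EV (0.11, -0.14 to 0.36, FDR 1). These intervals leave room for changes of up to 0.36 on the log2 scale in ARRDC4.

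ARRDC3, the only member with a miR-1 seed match, was also the least precisely measured, with 30 to 136 reads per library. Its log2 fold change was -0.23 in MV4-11 (95% interval -1.10 to 0.64, FDR 1) and 0.40 in Molm-14 (-0.41 to 1.21, FDR 1). The sign in MV4-11 rested on single libraries, with values of 0.31 without EV replicate 3, 0.03 without OE replicate 2 and -0.08 (FDR 0.983) without both libraries with high interferon-stimulated genes. In MV4-11 its highest levels, 5.54 CPM in EV replicate 3 and 4.24 CPM in OE replicate 1, were in the 2 libraries with high interferon-stimulated genes. The other members moved by 0.10 or less in both lines, and their groups overlapped. MLXIP had the narrowest intervals, -0.13 to 0.07 in MV4-11 and -0.01 to 0.20 in Molm-14. The difference of the OE effect between the lines was called for 0 of 7 members by edgeR and by DESeq2, with 0 at an unadjusted p under 0.05, beside 0.0456% of all genes. Of the 81 listed genes tested, 0 were called by either tool in either line or for the difference, and 3, 2 and 2 had an unadjusted p under 0.05. The median log2 fold change of the 13 interferon-stimulated genes in MV4-11 was 2.30, with 0 called by edgeR and 0 at an unadjusted p under 0.05. Without OE replicate 1 and EV replicate 3 the median was 0.07 over the 12 genes then tested, with 0 called and 2 at an unadjusted p under 0.05.

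In the knockout series, the values are a description, since this contrast chose TXNIP and ARRDC4. ARRDC4 was lower in KO than in EV libraries of all 3 lines. It was at 17.2, 16.8 and 16.97 CPM in MV4-11 KO, 44.8% of the EV mean, at 9.77, 9.58 and 10.2 CPM in Molm-14 KO, 65.5% of EV, and at 39.6, 36.7 and 36.7 CPM in THP-1 KO, 49.5% of EV. No KO library reached the level of an EV library of its line. The log2 fold changes were -1.16 (SE 0.102) in MV4-11, -0.61 (SE 0.122) in Molm-14 and -1.02 (SE 0.0932) in THP-1. Among 9426 genes with a mean of at least 10 CPM, the fold change of ARRDC4 was the 29th lowest in MV4-11, the 116th lowest in Molm-14 and the 9th lowest in THP-1. Low ranks follow from the choice of ARRDC4 by this contrast, so they lend it no support.

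TXNIP was lower in KO in MV4-11 and THP-1, while in Molm-14 KO and EV overlapped. It was at 318, 312 and 304 CPM in MV4-11 KO (66.6% of the EV mean), at 489, 508 and 433 CPM in THP-1 KO (64.1%) and at 197, 196 and 197 CPM in Molm-14 KO (95.0%). The log2 fold changes were -0.59 (SE 0.0801), -0.64 (SE 0.0797) and -0.07 (SE 0.0819) in that order. The KO value of TXNIP in Molm-14 minus that in THP-1 was 0.57 (SE 0.114), and the value in MV4-11 minus that in Molm-14 was -0.52 (SE 0.115). For ARRDC4 these differences were 0.40 (SE 0.154) and -0.55 (SE 0.160). Both genes were nearest to EV in Molm-14, the line with the lowest EV level of both. The same EV libraries enter the fold change and the EV level, so these are not independent, and a relation between them was not tested.

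The order of the group means in the knockout series can be read from these values. For ARRDC4, THP-1 EV (76.1 CPM) was followed by MV4-11 EV (37.9) and THP-1 KO (37.7), whose libraries overlapped, then by MV4-11 KO (16.99), Molm-14 EV (15.01) and Molm-14 KO (9.83). For TXNIP, THP-1 EV (745 CPM) was followed by THP-1 KO (477) and MV4-11 EV (468), whose libraries overlapped, then by MV4-11 KO (311), Molm-14 EV (207) and Molm-14 KO (196), of which the last pair overlapped. ARRDC4 lay further below EV than TXNIP, and the ratio of TXNIP to ARRDC4 per kilobase was 20.7 ± 0.413 in MV4-11 KO against 13.9 ± 0.766 in EV, 22.5 ± 0.622 against 15.6 ± 1.53 in Molm-14, and 14.3 ± 1.20 against 11.0 ± 0.711 in THP-1.

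**Figure D3:**
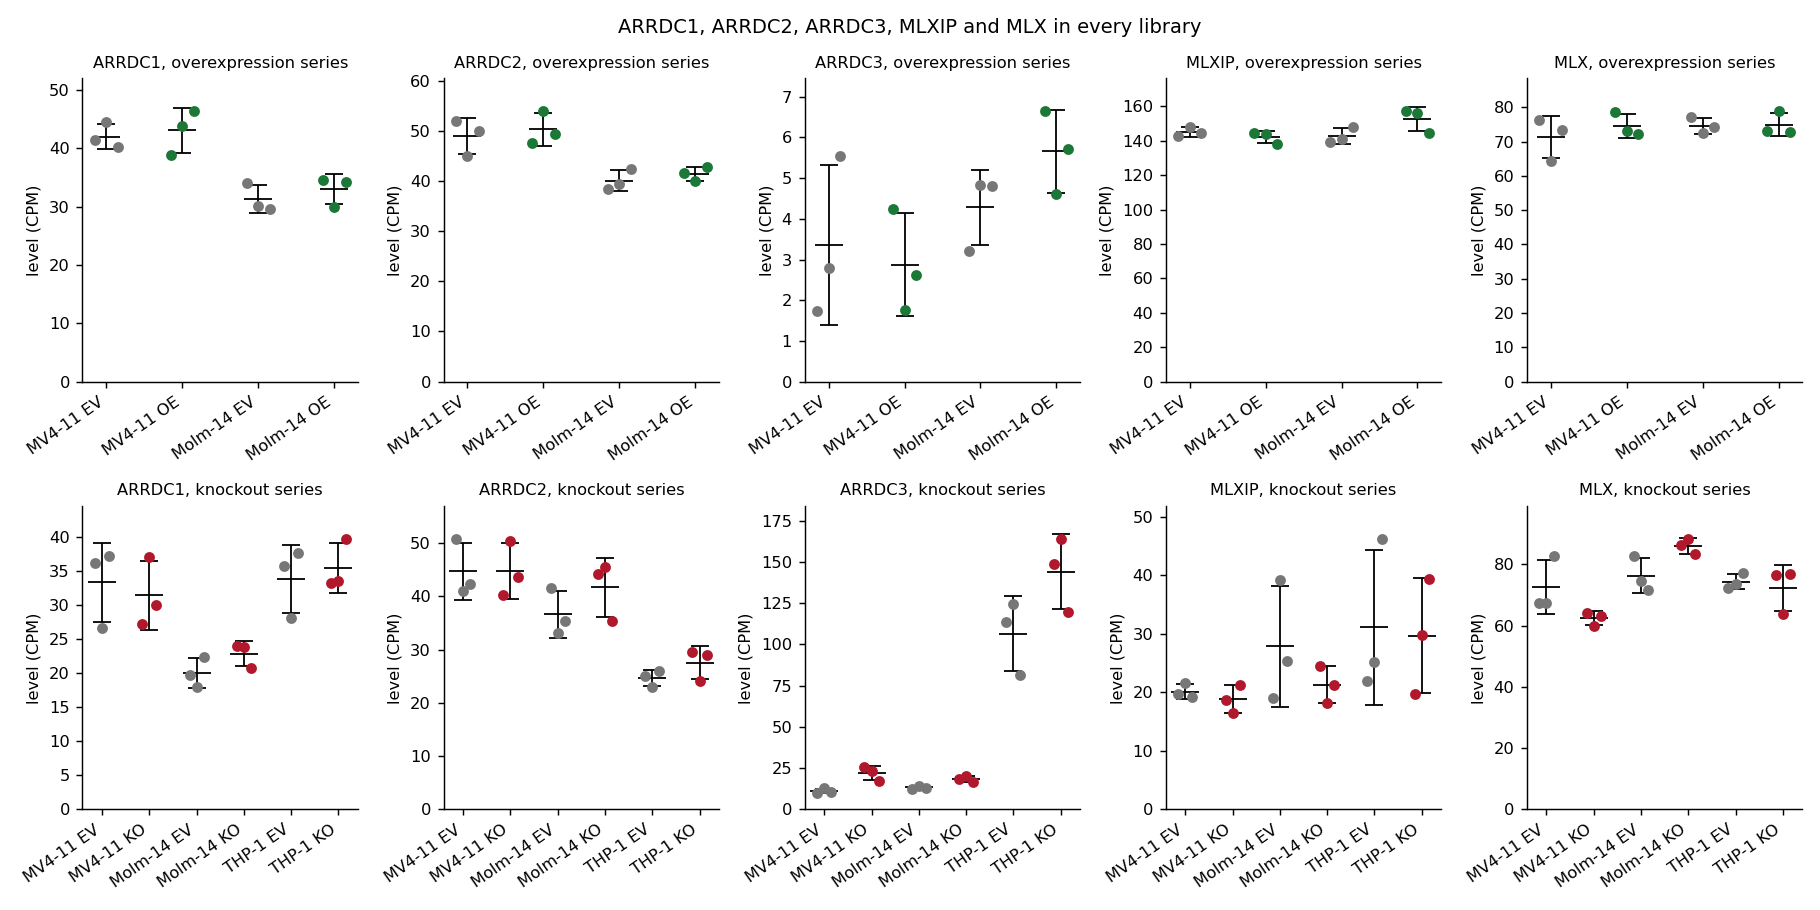
Levels of ARRDC1, ARRDC2, ARRDC3, MLXIP and MLX in CPM in the overexpression series (upper panels) and the knockout series (lower panels). Each point is 1 library, the horizontal line is the mean and the bars are the SD (n = 3). ARRDC3 lies between 81.4 and 164 CPM in THP-1 and at 25.5 CPM or less in the other lines of the knockout series, and MLXIP replicates are spread in THP-1 and Molm-14 EV.

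ARRDC3 had the opposite sign. It was at 25.5, 23.2 and 17.3 CPM in MV4-11 KO, 1.97 times the EV mean, at 18.3, 20.1 and 16.6 CPM in Molm-14 KO (1.37 times), and at 149, 164 and 119 CPM in THP-1 KO (1.35 times). KO libraries were all above EV libraries in MV4-11 and Molm-14 and overlapped with them in THP-1, where KO exceeded EV within 3 of 3 replicate numbers. The log2 fold changes were 0.98 (SE 0.184), 0.45 (SE 0.185) and 0.43 (SE 0.137). ARRDC1 and ARRDC2 lay between -0.08 and 0.19, with overlapping groups in every line.

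MLX, the sensing partner, had a lower mean in KO in MV4-11 and a higher mean in KO in Molm-14, and was called in neither line. It was at 64.1, 59.9 and 63.1 CPM in MV4-11 KO against 67.4, 67.5 and 82.8 CPM in EV, and at 86.2, 88.3 and 83.4 CPM in Molm-14 KO against 82.7, 74.5 and 71.6 CPM in EV. The groups did not overlap in either line, with log2 fold changes of -0.22 (SE 0.0932) and 0.18 (SE 0.0921), the first of which was -0.11 without EV replicate 3. The share of all genes without overlap was not computed, so nothing is read from the lack of overlap. In THP-1 the value of MLX was -0.04 (SE 0.0938). MLXIP was at -0.10 (SE 0.327), -0.42 (SE 0.317) and -0.05 (SE 0.311), each with a far larger SE than MLX. Its value in Molm-14 was -0.08 without EV replicate 2, and its value in THP-1 was 0.33 without EV replicate 3.

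**Figure D4:**
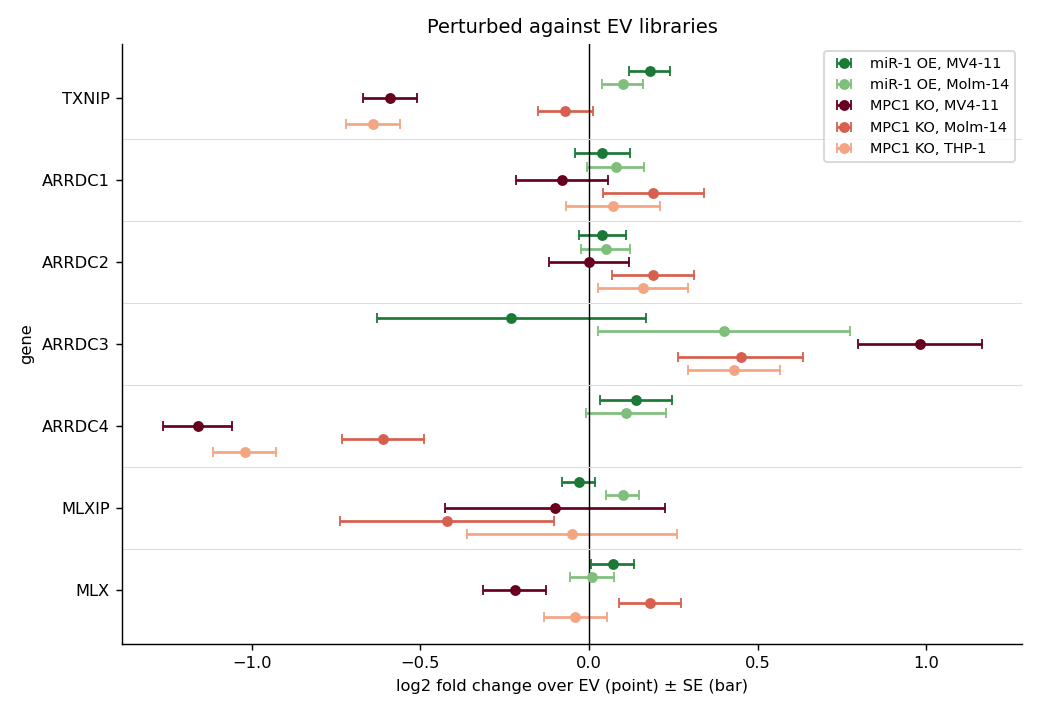
Log2 fold changes of the 7 members over EV (points) with SE (bars) for miR-1 OE in 2 lines and MPC1 KO in 3 lines, from the edgeR fit of each series (n = 3 per group). ARRDC4 lies between -1.16 and -0.61 in KO, TXNIP at -0.59 and -0.64 in MV4-11 and THP-1 and at -0.07 in Molm-14, ARRDC3 at 0.43 to 0.98 in KO, and no OE value passed the adjustment.

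At the same threshold the knockout fit called 3 of 7 members in MV4-11 (TXNIP, ARRDC3 and ARRDC4), where 5.41% of all genes were called, 1 in Molm-14 (ARRDC4), where 2.40% were called, and 2 in THP-1 (TXNIP and ARRDC4), where 0.0897% were called. Nothing is read from these counts, because the contrast chose the genes. For Molm-14 the count was 2 when all genes with at least 1 read were kept, ARRDC3 being added at 0.47 (SE 0.136). For THP-1 the count reached 3 among the alternatives that kept every library.

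Among the listed genes, edgeR called 5 higher and 6 lower in MV4-11 KO, 2 higher and 3 lower in Molm-14 KO, and 1 higher and 1 lower in THP-1 KO, of 81 tested in each. MPC1 was at -1.18 (SE 0.0973), -1.04 (SE 0.0934) and -0.84 (SE 0.0908). In MV4-11 the 3 called MondoA and ChREBP response genes were all lower in KO, KLF10 at -0.52 (SE 0.117), LDHA, the lactate-forming dehydrogenase, at -0.36 (SE 0.0891) and SCD, the stearoyl-CoA desaturase, at -0.30 (SE 0.0857). KLF10 was at -0.44 (SE 0.122) in THP-1 and 0.35 (SE 0.149) in Molm-14, neither of which was called. In Molm-14 only RGS16, a regulator of G protein signaling, was called in this list, higher at 0.53 (SE 0.103), and in THP-1 only SCD, higher at 0.45 (SE 0.0883). The medians of the 12 genes were -0.18, 0.11 and 0.05, beside 0.015, 0.000 and 0.003 over all genes.

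In glucose transport, SLC2A1, the GLUT1 transporter, was at 0.32 (SE 0.0972) and TXN2, mitochondrial thioredoxin, at -0.49 (SE 0.127) in MV4-11 KO, and edgeR called no gene of this list in the other lines. SMURF2, a ligase of the NEDD4 family, was at 0.31 (SE 0.0920), PRKAA1, a catalytic AMPK subunit, at 0.37 (SE 0.0898) and MPC2 at 0.31 (SE 0.0933) in MV4-11 KO. No gene of the MAX and MLX network and no arrestin-fold relative was called by edgeR in any line. DESeq2 called 9, 6 and 2 of the 81 genes in MV4-11, Molm-14 and THP-1. SLC2A1, SMURF2 and MPC2 were not among its calls in MV4-11, and it added MYC, of the MAX and MLX network, in MV4-11 and DDIT4 in Molm-14, which are named here after these calls were seen. Markers of the myeloid state moved as well. MPO was at -1.11 (SE 0.1005) and LYZ at 0.96 (SE 0.104) in Molm-14 KO, and PTPRC at 0.27 (SE 0.0780) and SPI1 at -0.46 (SE 0.137) in MV4-11 KO, and of the interferon-stimulated genes OAS3 was at -0.97 (SE 0.210) in Molm-14 KO. Their part in the values of the arrestins was not tested.

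How closely the members varied between replicates, after the mean of each group was subtracted, is given as a description. The libraries of a series share depth and composition effects. TXNIP and ARRDC4 had a Pearson r of 0.20 over 12 libraries of the overexpression series and 0.39 over 18 libraries of the knockout series, and by the mean of both ARRDC4 ranked 1736th among 8879 genes in likeness to TXNIP. The 5 genes most like TXNIP were CEP20, KBTBD8, MGST2, CHMP1B and GATC (mean r 0.76 to 0.80), and those most like ARRDC4 were MAP3K7, DYRK2, ALCAM, ZNF570 and ZC3H14 (0.73 to 0.78). ARRDC4 and MLX had r of -0.87 and -0.53, which placed MLX 8878th of 8879 genes in likeness to ARRDC4. TXNIP and MLXIP had r of 0.66 and -0.75, of opposite sign in the overexpression and knockout series.

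**Figure D5:**
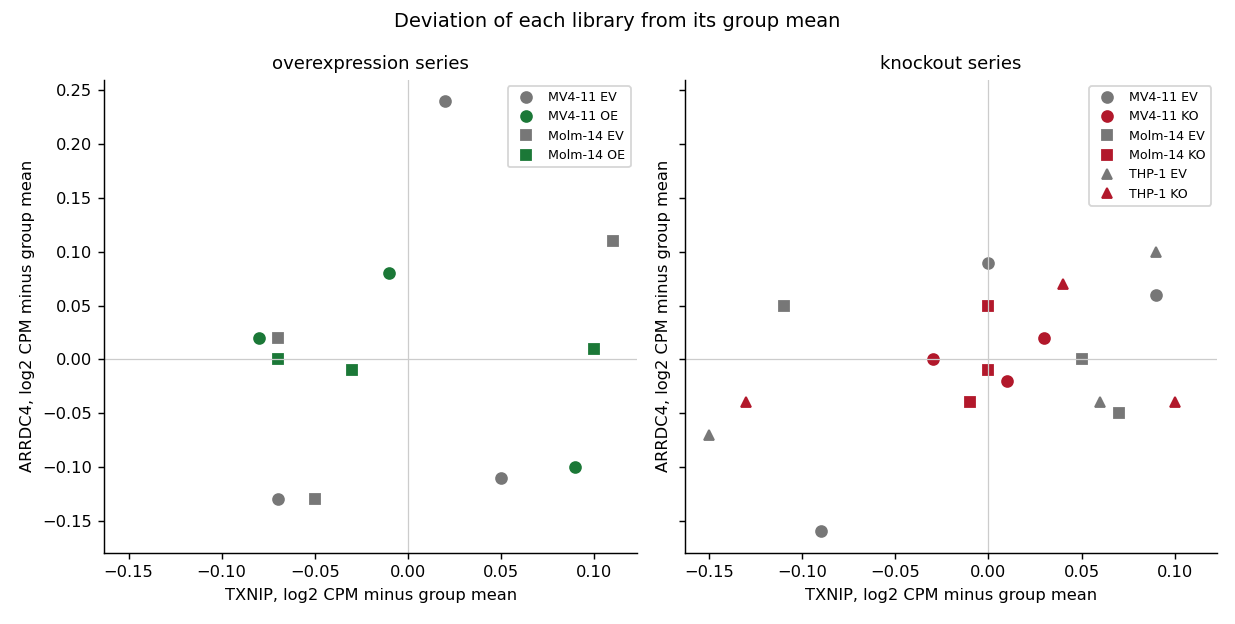
Deviation of TXNIP (horizontal axis) and ARRDC4 (vertical axis) from the group mean in log2 CPM, with 1 point per library of the overexpression series (left, r = 0.20, 12 libraries) and of the knockout series (right, r = 0.39, 18 libraries). Deviations of TXNIP stay within -0.15 to 0.11, small beside the differences between lines.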

How the data were processed

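RNA was measured in 30 libraries of AML cell lines, and the deposited counts are whole reads per Ensembl gene in 1 table per series. Per the labels, libraries were stranded and depleted of ribosomal RNA, and the submitters' processing notes name cutadapt 1.16, STAR 2.7.6a, featureCounts 1.6.3 and DESeq2 1.30.1 on GRCh38. The authors removed optical duplicates and aligned reads in two-pass mode. Whether strand was used in counting is not given in the sources used here, and a read shared between near-identical genes may be lost. The tables list different numbers of genes, so each was analysed alone.

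Groups were taken from the sample labels. Counts were fitted with edgeR 4.0.16 in R 4.3.3 (filterByExpr, TMM, robust quasi-likelihood), with 1 coefficient for each group and 1 model for each series, and p-values were adjusted by Benjamini-Hochberg over the genes tested (17542 with overexpression, 14490 with knockout). Genes under a 5% FDR were called. SE is the log2 fold change divided by the root of F. Log2 CPM for covariation used a prior count of 1. DESeq2 1.42.0, RLE size factors, other filters, fits on the compared libraries only, a replicate block and fits without each library were alternatives. The fit was tested on simulated data. Symbols, exon lengths and 3′ UTRs came from GENCODE on GRCh38, and promoters and miR-1 from RefSeq tables.

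The members and lists were chosen with earlier results of these data known. Named beyond the 7 members are called genes of the lists (at most 4 per list and comparison), MPC1 and the 5 genes most like TXNIP and ARRDC4 among those with at least 10 CPM. Replicate pairs differed by more than counting noise (chi-square per degree of freedom 1.50 to 15.8). Same-numbered THP-1 KO and EV libraries deviated together (r 0.37, 0.27 and 0.58 over 9426 genes), by the data only, and no other pair of groups reached the limit set for pairing with all 3 numbers. Between EV libraries of the knockout series, r was 0.49, 0.09 and 0.29 for THP-1 with MV4-11. It was 0.50, 0.46 and -0.17 for MV4-11 with Molm-14, and 0.49, -0.26 and -0.35 for THP-1 with Molm-14. Intervals cover the spread between libraries. One marker gene of the lists is not reported here.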

Additional observations from a re-analysis of the deposited data

Results flagged for a closer look

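No library was tested as an outlier, with 3 libraries per group. For 3 genes, every KO library lay on one side of EV in one line and on the other side in another line (3 libraries in each group). The search covered only the members and the listed genes called in a KO contrast. The share of all genes with this pattern was not computed, so the count has no background beside it and nothing is read from it. MLX was called in neither line, KLF10 only in MV4-11, and SCD in MV4-11 and THP-1 but not in Molm-14. No test of the differences between lines is given, because TXNIP and ARRDC4 were chosen on the KO against EV contrast. On the log2 scale, MLX was at -0.22 in MV4-11 KO and 0.18 in Molm-14 KO, a difference of -0.39 (SE 0.131), and its MV4-11 value was -0.11 without EV replicate 3. KLF10 was at -0.52 in MV4-11, -0.44 in THP-1 and 0.35 in Molm-14, and its MV4-11 value minus that in Molm-14 was -0.87 (SE 0.189). SCD was at -0.30 in MV4-11, -0.27 in Molm-14 and 0.45 in THP-1, and its MV4-11 value minus that in THP-1 was -0.74 (SE 0.123).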

How the results depend on the processing

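The number of members called per comparison and the r of TXNIP with ARRDC4 kept their value within 1.5 times or 1 SE under the alternatives run, with 1 exception, the 2 members called in Molm-14 KO when genes with at least 1 read were kept. With a replicate block the counts of called members were 0, 0 and 0 for OE and its difference and 4, 4, 4 and 5 between lines, the same as without it. The block changed no call of a member in these comparisons. The count in THP-1 KO, 2 in the main fit, reached 3 among the alternatives that kept every library, which is within the limit of 1.5 times. In the tested comparisons, sign changes fell on members that were not called, and the calls of ARRDC2, ARRDC3 and MLXIP that moved without 1 library stand beside their values above. MLX in THP-1 over Molm-14 was 0.03 with RLE size factors and 0.03 with DESeq2 in place of -0.04, and the difference of the OE effect on ARRDC2 was 0.05 without both MV4-11 libraries with high interferon-stimulated genes, an alternative chosen after seeing the data. Leaving out each replicate in turn, the log2 values whose range crossed or reached 0 were these. For OE in MV4-11 they were -0.02 to 0.10 for ARRDC1, -0.02 to 0.09 for ARRDC2, -0.61 to 0.31 for ARRDC3 and -0.00 to 0.12 for MLX, and for OE in Molm-14 -0.03 to 0.04 for MLX. For the difference of the OE effect they were -0.13 to 0.03 for ARRDC1, -0.07 to 0.04 for ARRDC2, -0.03 to 0.17 for ARRDC4 and -0.01 to 0.11 for MLX. Between lines they were -0.12 to 0.00 for MLX in the overexpression series, -0.12 to 0.14 for ARRDC1 and -0.02 to 0.14 for MLX in THP-1 over MV4-11, and -0.27 to 0.45 for MLXIP and -0.07 to 0.02 for MLX in THP-1 over Molm-14. For KO, given as a description, they were -0.22 to 0.01 for ARRDC1 and -0.09 to 0.11 for ARRDC2 in MV4-11, and -0.05 to 0.15 for ARRDC1, -0.30 to 0.33 for MLXIP and -0.08 to 0.04 for MLX in THP-1. The cause was not tested. Depth limits ARRDC4 in Molm-14, where libraries of the knockout series held 62 to 138 reads of it.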

Other observations

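MLXIP held 9.95 to 11.4 CPM per kilobase in the 12 libraries of the overexpression series and 1.19 to 3.33 in the 18 libraries of the knockout series, whose tables were normalised separately, and the values were not tested against each other. Within a library, its ratio to MLX per kilobase was 0.553 to 0.708 in the first series and 0.0628 to 0.184 in the second. Such a gap was not particular to MLXIP. MNT was at 60.6 to 74.4 CPM in the first series and 1.93 to 12.5 CPM in the second. FASN was at 1208 to 2205 and 69.9 to 279 CPM. MPC2 went the other way, at 36.2 to 46.6 and 59.5 to 95.6 CPM. The cause was not tested. MV4-11 and Molm-14 were in both series.

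The log2 difference of MV4-11 over Molm-14 EV was 0.60 and 1.18 for TXNIP and 1.02 and 1.34 for ARRDC4 in the overexpression and the knockout series, and whether these values differ between the series was not tested.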
